A study of Mus musculus with 13 samples.

Results

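The MiT/TFE transcription factors Tfeb, Tfe3, Mitf and Tfec were examined in nascent kidney RNA together with folliculin (Flcn), its partners Fnip1 and Fnip2, and the downstream genes Gpnmb and Ppargc1a. The members were chosen by gene symbol from the deposited table of estimated counts, which gave 9 of 35013 symbols. All 9 passed edgeR's filter on low counts, which kept 16468 genes for testing. The data came from 13 libraries of female mice: 4 labelled Spns1 KO, 5 labelled WT and 4 labelled FeO. Every mouse carried Megalin3'Cre-Ert, in which tamoxifen-inducible Cre is expressed from the megalin promoter of the proximal tubule, and 1 Uprt flox allele, from which Cre switches on UPRT so that newly made RNA is tagged with 4-thiouracil in the same cells and then captured. The study's methods state that mice were given tamoxifen in parallel. The Spns1 KO mice were Spns1 flox/flox. The WT mice were Spns1 flox/+ littermates, so that they too could lose 1 allele of Spns1, although their labels call the genotype Spns1 WT. The FeO mice had the genotype of the WT mice and received 12 mg of iron as iron sucrose on each of 3 days, and were euthanized 1 week later; the series text calls this model dietary. Ages were not given in the sources used here. The comparisons ask whether the genes of this circuit shift when Spns1, a lysosomal transporter, is deleted, and whether they shift when iron is loaded from outside.

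Folliculin and its FNIP partners act at the lysosome, where the complex stimulates the GTPase activity of RagC and RagD. Active folliculin lets mTORC1 phosphorylate TFEB, TFE3 and MITF, which keeps these factors in the cytoplasm. When folliculin or mTORC1 is inactive the factors enter the nucleus, bind E-boxes of the CLEAR type and drive lysosomal and autophagy genes. Loss of folliculin in the kidney is known for renal cysts and tumors (Birt-Hogg-Dubé syndrome). The factors are controlled largely by phosphorylation and location, which RNA counts do not measure.

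Total counts ranged from 23068023 to 71296474 per library. Spns1 itself stood at 39, 44.5, 36.6 and 58.9 CPM (counts relative to the TMM-scaled library total) in Spns1 KO 1 to 4, against 39.2 to 62.8 CPM in WT and 39 to 58.6 CPM in FeO. These ranges overlapped, with a log2 fold change of -0.31 (SE 0.18, adjusted p = 0.225) in Spns1 KO. A gene-level count covers exons outside the deleted one and can include RNA of cells outside the megalin domain, so it does not check the deletion. The paper reports loss of Spns1 RNA and of SPNS1 protein in the proximal tubule of its conditional knockout. The labelled cell type is proximal tubule, and all 15 proximal tubule markers listed were detected, with a summed level of 4822 to 6771 CPM in WT, 13122 to 13780 in Spns1 KO and 2979 to 10589 in FeO. Markers of the loop, distal tubule and collecting duct (14 genes) summed to 2294 to 4984 CPM in WT, 3687 to 4772 in Spns1 KO and 2464 to 6367 in FeO, so RNA of other segments was present as well. Podocyte and endothelial markers (10 genes) summed to 357 to 498, 462 to 517 and 442 to 925 CPM, and fibroblast and pericyte markers (8 genes) to 115 to 153, 175 to 228 and 104 to 204 CPM, in the same order of groups. In tagged RNA captured from whole kidney, fewer cells of a type, less RNA per cell and less tagging or capture cannot be told apart.

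The promoters of the 5 members that passed the limits in any comparison are printed here, because the MiT/TFE factors read E-boxes and Flcn, Fnip1, Fnip2 and Ppargc1a were all called down in FeO. Each run is the RefSeq window from 250 bases before to 50 bases after the transcription start, 5′ to 3′ on the gene's strand, in GRCm38.p6 coordinates. Capitals mark every CACGTG, the palindromic E-box core, and every CATGTG or its reverse complement CACATG.
Flcn, chr11:59809990-59810289, minus strand: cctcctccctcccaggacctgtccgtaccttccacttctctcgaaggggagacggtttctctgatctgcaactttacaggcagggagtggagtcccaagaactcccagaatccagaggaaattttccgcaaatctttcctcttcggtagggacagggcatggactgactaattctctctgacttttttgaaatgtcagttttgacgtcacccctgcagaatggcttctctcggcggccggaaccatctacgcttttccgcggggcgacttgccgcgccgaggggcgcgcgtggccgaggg
Fnip1, chr11:54437929-54438228, plus strand: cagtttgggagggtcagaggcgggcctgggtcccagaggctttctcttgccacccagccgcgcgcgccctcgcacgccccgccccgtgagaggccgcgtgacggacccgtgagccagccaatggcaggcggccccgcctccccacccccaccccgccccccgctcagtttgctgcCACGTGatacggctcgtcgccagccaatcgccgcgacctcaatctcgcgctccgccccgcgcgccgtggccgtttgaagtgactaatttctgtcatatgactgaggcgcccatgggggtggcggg
Fnip2, chr3:79567630-79567929, minus strand: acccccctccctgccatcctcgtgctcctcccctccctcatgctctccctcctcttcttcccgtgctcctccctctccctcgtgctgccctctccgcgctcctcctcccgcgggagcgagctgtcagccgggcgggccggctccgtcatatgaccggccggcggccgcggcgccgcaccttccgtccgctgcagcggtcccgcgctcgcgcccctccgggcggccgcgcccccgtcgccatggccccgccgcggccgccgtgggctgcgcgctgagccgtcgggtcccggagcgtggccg
Gpnmb, chr6:49036268-49036567, plus strand: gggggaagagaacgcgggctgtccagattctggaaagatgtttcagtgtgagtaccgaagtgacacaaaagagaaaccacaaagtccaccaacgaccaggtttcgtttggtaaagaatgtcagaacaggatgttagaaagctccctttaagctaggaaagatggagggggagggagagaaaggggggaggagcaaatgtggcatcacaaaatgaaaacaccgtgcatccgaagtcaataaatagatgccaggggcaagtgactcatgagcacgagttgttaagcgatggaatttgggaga
Ppargc1a, chr5:51567676-51567975, minus strand: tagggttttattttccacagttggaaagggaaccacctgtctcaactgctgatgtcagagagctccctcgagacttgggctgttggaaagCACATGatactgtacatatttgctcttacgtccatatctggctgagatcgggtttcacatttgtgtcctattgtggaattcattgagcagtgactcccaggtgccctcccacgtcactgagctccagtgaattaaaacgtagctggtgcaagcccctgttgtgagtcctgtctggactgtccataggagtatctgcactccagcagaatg
The Fnip1 window held 1 CACGTG, whose first base lies at position -75, and the Ppargc1a window held 1 CACATG, whose first base lies at -160 (the base before the start is -1). Neither motif occurred in the windows of Flcn, Fnip2 or Gpnmb, nor in those of Tfec or of the start sites of Tfeb (3), Tfe3 (2) and Mitf (3). Among 32851 RefSeq promoters of the same length, 7.2% held CACGTG and 14.2% held CATGTG on either strand, and among the 12345 tested genes with a promoter these shares were 10.8% and 11.1%. Allowing for a flanking T, the Fnip1 match was TCACGTG read on the opposite strand (3.8% of promoters) and the Ppargc1a match was TCATGTG on the opposite strand (3.8%). These are matches of letters and are not evidence of binding.

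In the libraries labelled Spns1 KO, none of the 4 factors, Flcn, Fnip1 or Fnip2 passed the limits. After iron loading Flcn, Fnip1 and Fnip2 fell and Gpnmb rose. Ppargc1a fell in both models. Calls required a log2 fold change beyond 0.5 in either direction together with an adjusted p under 0.05 (edgeR quasi-likelihood test, Benjamini-Hochberg over all genes tested). In Spns1 KO against WT, 0 of 9 members were called up and 1 was called down. Of all genes tested, 21.6% were called in this comparison, 14% up and 7.55% down. In FeO against WT, 1 member was called up and 4 down, against 42.2% of all genes called, 22.4% up and 19.7% down. In Spns1 KO against FeO, 1 member was called up and 1 down, against 14.9% of all genes called, 6.76% up and 8.1% down. The libraries of the 2 groups did not overlap for 1 member in Spns1 KO against WT and 4 in FeO against WT. Between Spns1 KO and FeO, 3 members did not overlap. The shares of all genes without overlap were 22.4%, 33.4% and 17.4% in these 3 comparisons. The median log2 fold change of the members was -0.34 in Spns1 KO and -0.19 in FeO relative to WT, beside -0.045 and -0.011 over all genes tested. Both comparisons use the same WT libraries. Spns1 KO 4 had the highest Spns1, Flcn, Fnip2 and Ppargc1a and the lowest Tfec of its group, and its Spns1 level of 58.9 CPM lay inside the WT range. Without it Fnip2 was called in Spns1 KO, at -1.16, and the genes called against WT went from 3550 to 5680, whereas without Spns1 KO 3 they went to 2035, and leaving out Spns1 KO 1, Spns1 KO 2 or WT 3 also lowered them by more than 1.5 times. Scaling to library totals in place of TMM moved the median of all genes in Spns1 KO by -0.13 and the share of calls that were up from 65% to 45.5%, and in Spns1 KO against FeO the share went from 45.5% to 33.9%.

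**Figure D1:**
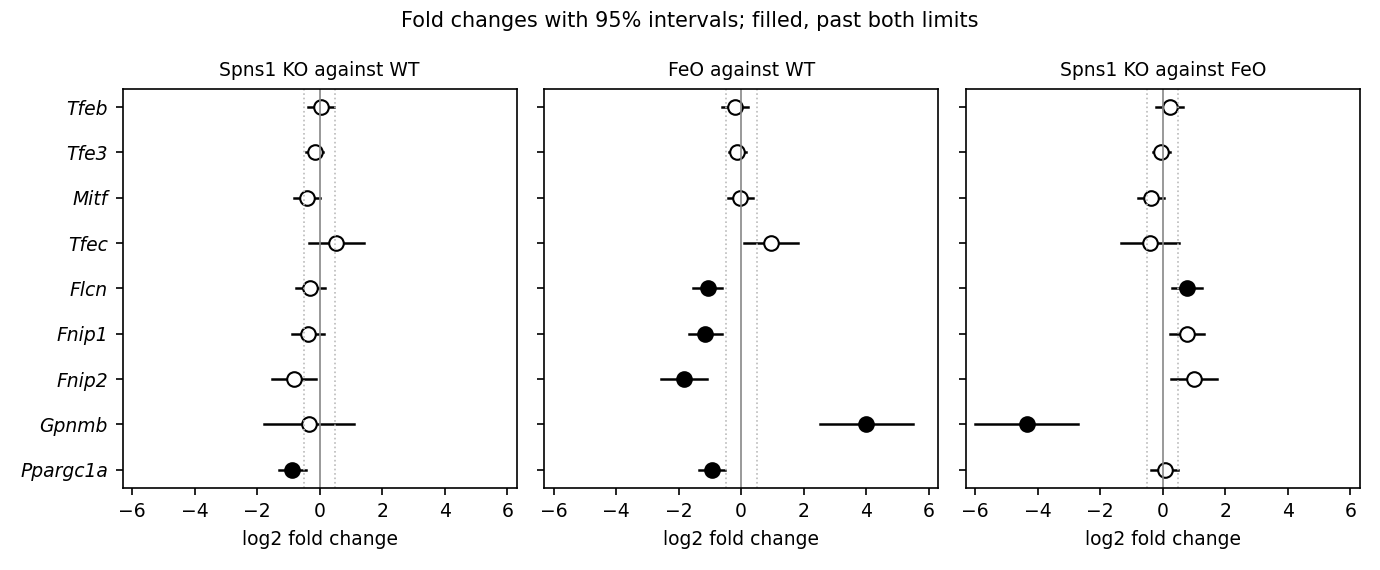
Log2 fold change of each of the 9 members (rows) with its 95% interval, in Spns1 KO against WT, FeO against WT and Spns1 KO against FeO; filled circles are past both limits and dotted lines mark 0.5 in either direction. No interval of Tfeb or Tfe3 leaves 0 and neither is called in any panel, while Gpnmb lies at 4.00 in FeO against WT and Flcn, Fnip1 and Fnip2 lie between -1.82 and -1.07.

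Tfeb, the member best known as the master factor of lysosomal genes, lies on chromosome 17 from 47737030 to 47792419 (plus strand, GRCm38). It stood at 19.4, 19.2, 17.4, 14 and 19.5 CPM in WT 1 to 5. Spns1 KO libraries 1 to 4 gave 18.4, 19.5, 17.7 and 17.8 CPM, inside the WT range. FeO 1 to 4 gave 16.9, 19.7, 8.91 and 17.2 CPM, of which FeO 3 was the lowest of all 13 libraries. The log2 fold change was 0.03 in Spns1 KO (SE 0.19, 95% interval -0.38 to 0.45, adjusted p = 0.915) and -0.19 in FeO (SE 0.20, interval -0.61 to 0.23, adjusted p = 0.439). The sign of the Spns1 KO value depended on the scaling, being -0.10 with library totals and -0.13 with a trend on transcript length and GC content removed.

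Tfe3, which shares most of the targets of Tfeb, lies on chromosome X from 7762560 to 7775202 (plus strand). WT 1 to 5 had 45.4, 44.5, 40.7, 37 and 41.7 CPM. In Spns1 KO 1 to 4, Tfe3 was at 33.9, 38.1, 36.1 and 42.4 CPM. FeO 1 to 4 stood at 34.6, 45.3, 38.3 and 36.5 CPM. The 3 groups overlapped, and the spread within groups was small, with SDs of 3.34, 3.6 and 4.66 CPM. The log2 fold changes of -0.16 in Spns1 KO (SE 0.13, interval -0.43 to 0.11) and -0.12 in FeO (SE 0.13, interval -0.38 to 0.15) had adjusted p = 0.384 and 0.472.

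Mitf, the factor of melanocytes, osteoclasts and mast cells, lies on chromosome 6 from 97807052 to 98021349 (plus strand), with Gm15531 on the opposite strand inside it. WT 3 and WT 4, at 34.7 and 39.9 CPM, stood above WT 1, 2 and 5 at 21.3, 23.3 and 23.8 CPM. In Spns1 KO 1 to 4 it was 22.4, 23.1, 21.9 and 19 CPM, close to the latter. In FeO the values were 32, 23.9, 25.2 and 31.2 CPM, all above every Spns1 KO library. Relative to WT, Mitf changed by -0.41 in Spns1 KO (SE 0.19, interval -0.81 to 0, adjusted p = 0.135) and by -0.03 in FeO (SE 0.19, interval -0.43 to 0.38, adjusted p = 0.921). The difference between Spns1 KO and FeO was -0.38 (SE 0.20, adjusted p = 0.199), which did not pass the limits. The groups did not overlap, as for 17.4% of all genes tested.

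Tfec, a family member known from macrophages, lies on chromosome 6 from 16833373 to 16898441 (minus strand) and was the most variable of the 4 factors. It stood at 15.3, 13, 11.3, 15.9 and 11.2 CPM in WT 1 to 5. Spns1 KO 1 to 3 gave 25.5, 25.1 and 19.7 CPM, above all WT libraries, whereas Spns1 KO 4 gave 7.66 CPM, below all of them. FeO 2 and FeO 3 were high at 28.4 and 52 CPM, whereas FeO 1 and FeO 4 gave 10.1 and 13.1 CPM. The log2 fold change was 0.54 in Spns1 KO (SE 0.41, interval -0.33 to 1.41, adjusted p = 0.346) and 0.95 in FeO (SE 0.41, interval 0.08 to 1.82, adjusted p = 0.0684). Neither was called, and the FeO value lay between 0.36 and 1.24 when each library was left out in turn, passing the limits without FeO 1, without FeO 4 or without Spns1 KO 4. DESeq2 and the fit without a low-count filter called Tfec in FeO as well.

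**Figure D2:**
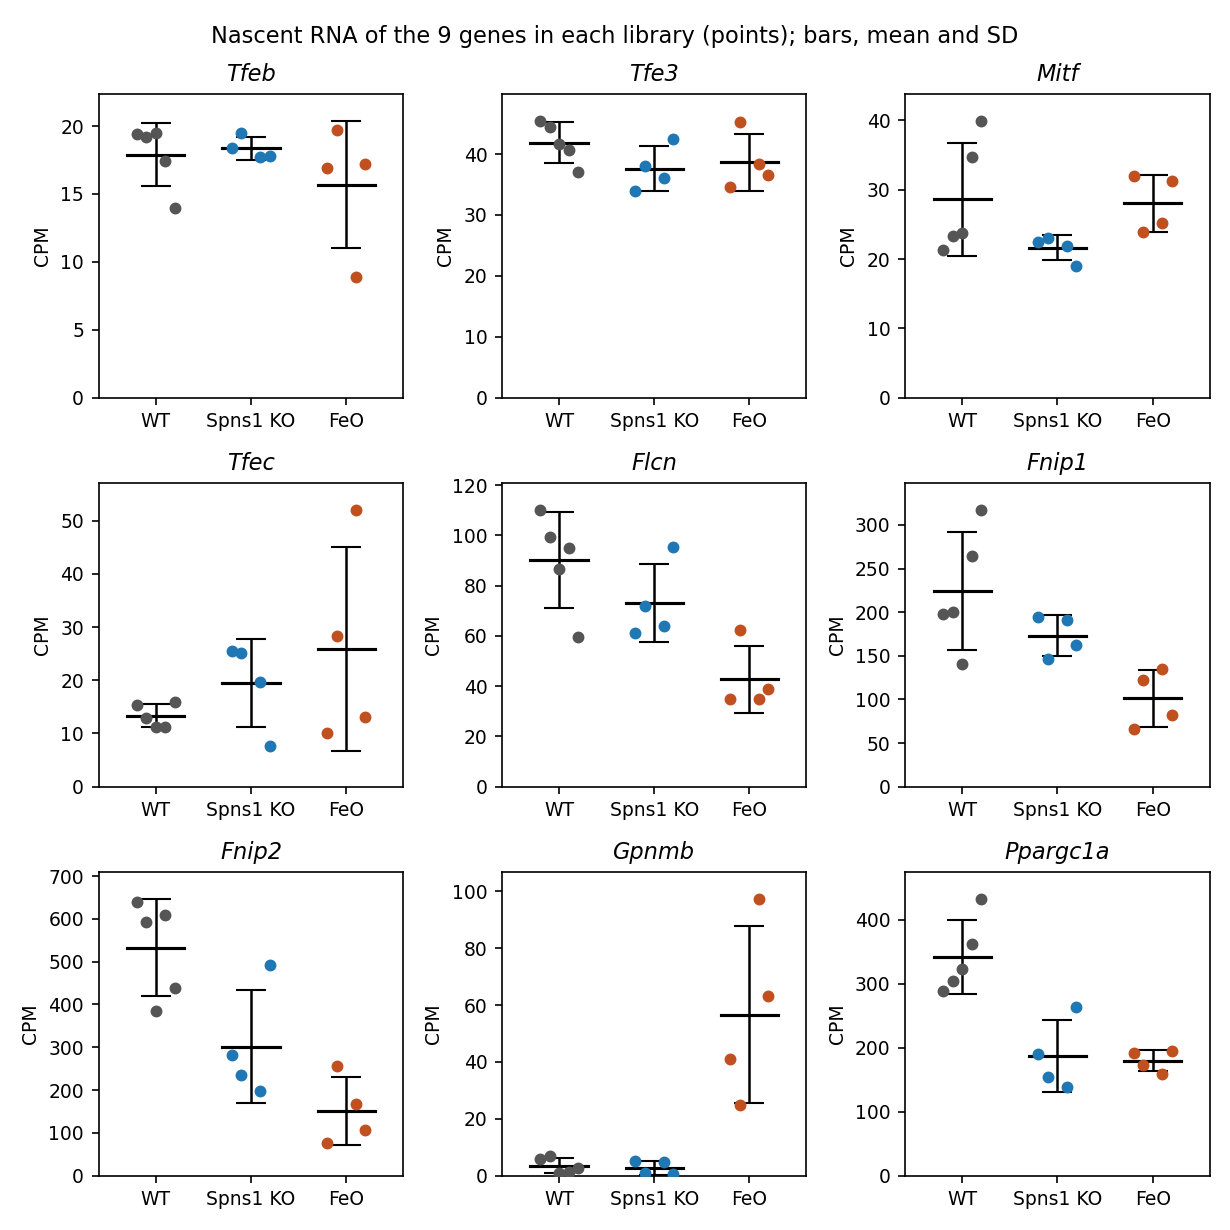
CPM of each member in each library (points; WT n = 5, Spns1 KO n = 4, FeO n = 4), with the group mean (line) and SD (whiskers) on linear axes that start at 0. All 4 FeO libraries lie above every WT and Spns1 KO library for Gpnmb, between 25 and 97.3 CPM, and below every WT library for Fnip1, Fnip2 and Ppargc1a. Over all genes tested, 33.4% did not overlap between FeO and WT.

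Levels of different genes were compared per kilobase of the median annotated transcript. On that scale (CPM per kb) Tfe3 and Mitf averaged 13.2 ± 1.06 and 13.4 ± 3.86 in WT (SD, n = 5), above Tfeb at 7.74 ± 1.01 and Tfec at 7.48 ± 1.22. Mitf and Tfe3 lay within each other's spread in that order, as did Tfeb and Tfec. The place of Mitf depends on the length used, as its median transcript has 2128.5 bases and its longest 4881. For Tfeb these lengths are 2312 and 2342 bases, and for Tfe3 3163 and 3390. The shares of the 4 factors carry the same limit. As shares of their summed level per kb in the 5 WT libraries (mean ± SD), Tfeb made up 18.6% ± 3.32, Tfe3 31.8% ± 3.89, Mitf 31.8% ± 7.4 and Tfec 17.8% ± 2.46. The 4 Spns1 KO libraries had 19.6% ± 1.95 Tfeb, 29.6% ± 6.45 Tfe3, 24.9% ± 0.986 Mitf and 25.9% ± 9.23 Tfec. The 4 FeO libraries had 15.2% ± 5.66 Tfeb, 26.5% ± 3.52 Tfe3, 29.4% ± 9.09 Mitf and 28.8% ± 16.7 Tfec. The largest shift against WT among these shares was that of Tfec in FeO, 11 percentage points (two-sided exact permutation p = 0.286, 0.612 when adjusted), and it came from FeO 2 and FeO 3 at 31.8% and 51.2%, while FeO 1 and FeO 4 stood at 14.5% and 17.9%, near the WT range of 14.8% to 20.8%. In Spns1 KO the Tfec share was 8.09 points above WT (exact permutation p = 0.111, adjusted p = 0.343), at 32.9%, 31% and 27.3% in Spns1 KO 1 to 3 and 12.5% in Spns1 KO 4. No share differed past the threshold after adjustment over the 15 share tests, of which the lowest adjusted p was 0.343. With groups of 4 and 5 the smallest p this test allows is 0.0159, and with 4 and 4 it is 0.0286, so that an adjusted p under 0.05 would have needed several tests at the minimum.

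**Figure D3:**
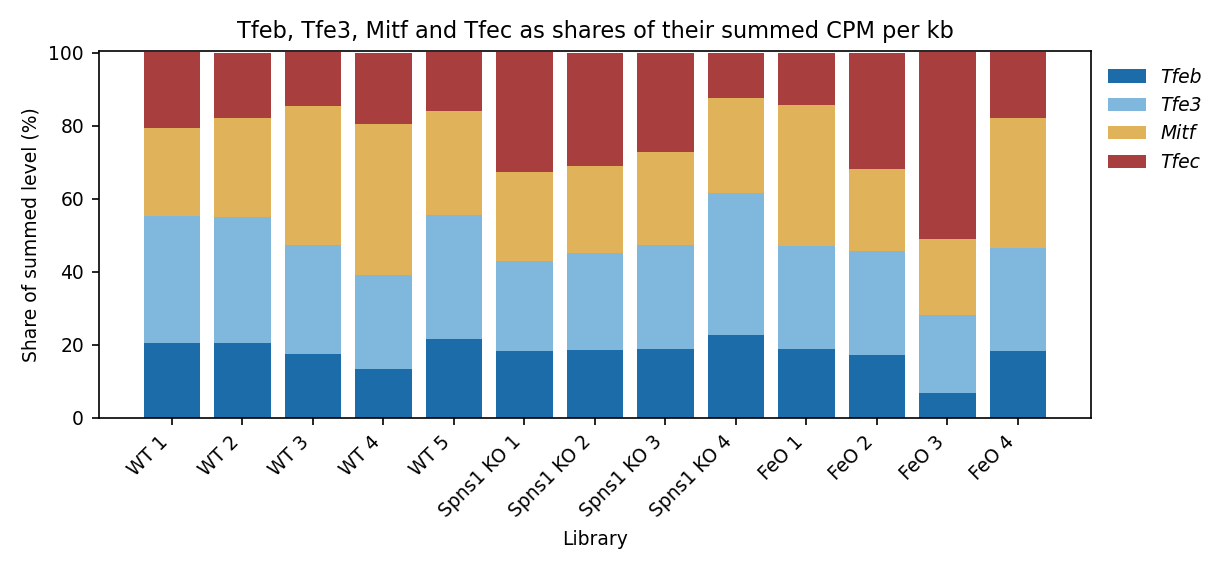
Shares (percent) of Tfeb, Tfe3, Mitf and Tfec in their summed CPM per kb, 1 stacked bar per library. Tfec makes up 51.2% in FeO 3 and 12.5% in Spns1 KO 4, the highest and lowest of its shares.

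Folliculin and both partners fell in FeO. Flcn, the GTPase-activating subunit, lies on chromosome 11 from 59791408 to 59810016 (minus strand). It stood at 110, 99.2, 94.8, 59.4 and 86.6 CPM in WT 1 to 5. In Spns1 KO 1 to 4 its level was 61.3, 71.8, 63.9 and 95.3 CPM, all within the WT range. In FeO it was 35, 62.5, 34.7 and 38.9 CPM, where FeO 2 alone reached above the lowest WT library. Flcn fell by 1.07 on the log2 scale in FeO (SE 0.22, interval -1.54 to -0.61, adjusted p = 0.00162), from a mean of 90.1 ± 19.2 CPM (SD, n = 5) to 42.8 ± 13.3 CPM (SD, n = 4). The Spns1 KO value was -0.30 (SE 0.22, interval -0.76 to 0.16, adjusted p = 0.319).

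Fnip1, which binds folliculin and AMPK, lies on chromosome 11 from 54438199 to 54518235 (plus strand). WT 1 to 5 gave 198, 200, 265, 317 and 141 CPM. Spns1 KO 1 to 4 gave 194, 146, 191 and 162 CPM, a narrower range inside that of WT. FeO 1 to 4 gave 65.8, 122, 135 and 82 CPM, below every WT and every Spns1 KO library. It fell by 1.15 in FeO (SE 0.25, interval -1.68 to -0.62, adjusted p = 0.00229), and the Spns1 KO value was -0.37 (SE 0.24, interval -0.89 to 0.15, adjusted p = 0.279). In the fit with length and GC offsets, which takes out that trend, the FeO value was -0.35 and no longer called, and the Spns1 KO value was 0.14. Fnip1 has a long transcript of 6255 bases with a GC content of 38.93%.

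Fnip2, the second partner, lies on chromosome 3 from 79455974 to 79567796 (minus strand), with Gm17359 on the opposite strand and Gm3513 on the same strand inside it. It had the highest level per kb of the 9 members in WT, 96.2 ± 20.4 CPM per kb (SD, n = 5). Its CPM was 639, 593, 608, 439 and 384 in WT 1 to 5. Spns1 KO 1 to 3 lay below every WT library at 281, 236 and 198 CPM, and Spns1 KO 4 lay inside the WT range at 492 CPM. FeO 1 to 4, at 75.7, 256, 167 and 107 CPM, all lay below every WT library. Fnip2 fell by 1.82 in FeO (SE 0.35, interval -2.55 to -1.08, adjusted p = 0.00108), a mean 3.52 times lower than in WT. In Spns1 KO the value was -0.82 (SE 0.33, interval -1.53 to -0.11, adjusted p = 0.0857), which did not pass the limits. It passed them without Spns1 KO 4, where it was -1.16, and with DESeq2, library totals or a fit of the 2 groups alone.

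Per kb of the median transcript, Fnip2 exceeded Fnip1 in all 13 libraries. That ordering depends on the length used, as Fnip2 transcripts have a median of 5537 bases and a longest of 7299, against 6255 for Fnip1. On the median length, Fnip2 made up 72.8% ± 7 (SD) of the sum of both partners over the 5 WT libraries. Its part was 64.5% ± 9.72 over the 4 Spns1 KO libraries and 61.2% ± 6.24 over the 4 FeO libraries. The FeO share fell short of the WT share by 11.7 percentage points (coded difference -11.7, two-sided exact permutation p = 0.0317, 0.343 when adjusted over the 15 share tests), so that unequal falls of the partners were not established. Relative to FeO, Spns1 KO had higher Flcn by 0.77 (SE 0.23, adjusted p = 0.0342), Fnip1 by 0.78 (SE 0.26, adjusted p = 0.0531) and Fnip2 by 1.00 (SE 0.35, adjusted p = 0.0643), of which Flcn alone was called. That call was lost in 5 of 13 fits that left out a library (Spns1 KO 2 or 4, or FeO 1, 3 or 4), whose values over all 13 lay between 0.62 and 1.02, and also with library totals (0.69), with the 2 groups alone (0.77) and with a replicate block (0.81), whereas DESeq2 and limma-voom called all 3 genes. Proximal tubule markers summed to 2979 CPM in FeO 1 and 6740 to 10589 CPM in FeO 2 to 4, against 4822 to 6771 CPM in WT. Fnip1 and Fnip2 lay below the WT range in every FeO library, and Flcn did in FeO 1, FeO 3 and FeO 4. The marker sum rests in part on Kap, at 582 to 6726 CPM in FeO and 793 to 1082 CPM in WT. Of the 15 markers, 3 were called up and 1 down in FeO, beside 22.4% and 19.7% of all genes tested. Their median log2 fold change was 0.11, and 8 of the 15 were higher in FeO. The marker called down was the transporter gene Slc5a12 (-1.46, SE 0.44, adjusted p = 0.015). Slc34a1 averaged 1187 CPM in FeO against 1608 CPM in WT, whereas Aqp1 averaged 444 CPM in FeO against 193 CPM in WT. The part of tubule content in the fall of these genes was not tested.

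Gpnmb, a transmembrane glycoprotein of lysosomes that MITF and TFE3 are known to drive in melanocytes and macrophages, lies on chromosome 6 from 49036546 to 49070929 (plus strand) and made the largest change of any member. WT 1 to 5 gave 5.8, 6.78, 1.23, 2.86 and 0.888 CPM, from 23 to 220 counts. In Spns1 KO 1 to 4 it reached 5.07, 0.919, 4.67 and 0.448 CPM, from 19 to 340 counts. FeO 1 to 4 gave 41.2, 25, 97.3 and 63.3 CPM, from 771 to 2468 counts, and the lowest FeO library was above the highest of all the others. The mean rose from 3.51 ± 2.66 CPM in WT (SD, n = 5) to 56.7 ± 31.3 CPM in FeO (SD, n = 4), 16.2 times as high. The log2 fold change was 4.00 (SE 0.70, interval 2.52 to 5.48, adjusted p = 0.000692) in FeO, higher than for 99.9% of all genes tested. In Spns1 KO it was -0.34 (SE 0.67, interval -1.77 to 1.09, adjusted p = 0.735), and the values of the Spns1 KO and WT libraries overlapped. The difference between Spns1 KO and FeO was itself called, at -4.34 (SE 0.77, adjusted p = 0.00429). Per kb, Gpnmb was the lowest of the 9 members in WT and Spns1 KO, at 1.15 ± 0.869 and 0.906 ± 0.793 CPM per kb (SD, n = 5 and n = 4), and the third highest in FeO, at 18.5 ± 10.2 (SD, n = 4).

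Macrophage markers rose in FeO, as Gpnmb did, and were higher in Spns1 KO as well, where Gpnmb was not. The summed level of 18 markers was 67.7 to 88.1 CPM in WT, 94.5 to 156 CPM in Spns1 KO and 120 to 234 CPM in FeO, with no overlap between WT and either model. Of the 16 markers that passed the filter, 9 were called up in FeO and 2 in Spns1 KO, beside 22.4% and 14% of all genes tested. In FeO, Lyz2, macrophage lysozyme, rose by 3.07 (SE 0.62, adjusted p = 0.00147), the pore-forming Mpeg1 by 2.14 (SE 0.38, adjusted p = 0.00074) and the complement gene C1qa by 1.46 (SE 0.26, adjusted p = 0.000778). The 2 markers called in Spns1 KO were the chemokine receptor Cx3cr1 (log2 fold change 1.60, SE 0.30, adjusted p = 0.00193) and the complement gene C1qc (1.09, SE 0.25, adjusted p = 0.00672). Of the defining genes, Adgre1 (F4/80) was among the 9 called in FeO but low, at 0.656 to 1.98 CPM in WT and 0.843 to 3.55 CPM in FeO, and Clec4f was at 0 in 12 of 13 libraries. In Spns1 KO 3, whose macrophage markers summed to 156 CPM, Gpnmb was 4.67 CPM, whereas in FeO 2, whose markers summed to 120 CPM, it was 25 CPM. Each of these is a single library, and the marker sum rests in large part on Csf1r and Lyz2. The WT range of Csf1r was 33.3 to 38.8 CPM, while Spns1 KO libraries had 45.1 to 56.7 CPM and FeO libraries 45.8 to 67.4 CPM. Lyz2 reached at most 10.6 CPM among WT libraries, 36.3 CPM among Spns1 KO libraries and 89.2 CPM among FeO libraries. The tagging of RNA should be restricted to the megalin domain, which would leave macrophage RNA out, but the markers were detected. The part of macrophages in the Gpnmb result was not tested. Melanocyte markers (6 genes) summed to 2.4 CPM or less in every library, and Tyrp1 was at 0 in all 13; Tyr and Dct were called down in FeO at means of 0.0863 and 0.446 CPM.

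**Figure D4:**
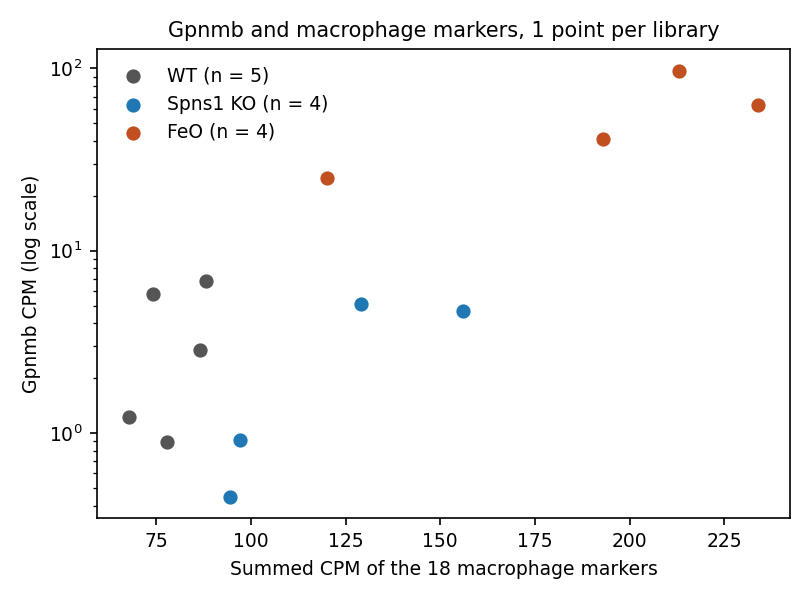
Gpnmb (CPM, log axis) against the summed CPM of the 18 macrophage markers (linear axis), 1 point per library, by group. The FeO libraries lie at 120 to 234 CPM of markers and 25 to 97.3 CPM of Gpnmb, whereas the Spns1 KO libraries lie at 94.5 to 156 CPM of markers with Gpnmb no higher than in WT.

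Ppargc1a, the coactivator PGC-1α that drives mitochondrial genes and whose gene TFEB is known to target, was the member called in both models. It lies on chromosome 5 from 51454250 to 51567726 (minus strand). WT 1 to 5 gave 288, 304, 362, 432 and 323 CPM. Spns1 KO 1 to 4 gave 190, 154, 139 and 264 CPM, and FeO 1 to 4 gave 192, 173, 159 and 195 CPM. No library of either model reached the lowest WT library, although Spns1 KO 4 came close. Means fell from 342 ± 57.3 CPM (SD, n = 5) to 187 ± 55.7 CPM in Spns1 KO (SD, n = 4) and 180 ± 16.7 CPM in FeO (SD, n = 4). Ppargc1a fell by 0.87 in Spns1 KO (SE 0.20, interval -1.29 to -0.45, adjusted p = 0.00615) and by 0.93 in FeO (SE 0.20, interval -1.34 to -0.51, adjusted p = 0.00195). The difference between the models was 0.06 (SE 0.20, interval -0.37 to 0.49, adjusted p = 0.869), so the interval leaves room for a difference of up to 0.49 on the log2 scale. The Spns1 KO call was kept under all 23 alternatives, and the FeO call under 22, but with length and GC offsets the values were -0.60 and -0.50, the latter at the limit. Proximal tubule markers summed to 13122 CPM or more in Spns1 KO and 6771 CPM or less in WT. In Spns1 KO 11 of the 15 were called up, beside 14% of all genes tested. Whether tubule content affected Ppargc1a was not tested.

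Of the 31 other PGC-1 coactivators and partners, Spns1 KO raised 2 and lowered 6, and FeO raised 4 and lowered 17. Over all genes tested, 14% rose and 7.55% fell in Spns1 KO, and 22.4% rose and 19.7% fell in FeO. The median log2 fold changes of the 31 genes were -0.45 and -0.54. In FeO, Ppara, the fatty acid receptor coactivated by PGC-1α, fell by 2.68 (SE 0.45, adjusted p = 0.000644), and Foxo1 and Foxo3, forkhead factors, fell by 1.47 (SE 0.28, adjusted p = 0.00117) and 1.45 (SE 0.39, adjusted p = 0.00817). The genes of the related coactivators, Ppargc1b and Pprc1, were called down in FeO as well, with log2 fold changes of -1.33 and -1.41. Among the genes called in Spns1 KO the largest fall was that of Esrrb, an orphan nuclear receptor, by 1.59 (SE 0.25, adjusted p = 0.000782), followed by the muscle-type factor Mef2a at -0.80 (SE 0.16, adjusted p = 0.00284) and the corepressor Nrip1 at -0.79 (SE 0.21, adjusted p = 0.0146). Foxo3 stood at -1.01 in Spns1 KO (SE 0.38, adjusted p = 0.0677), not called, and was called at -1.16 with length and GC offsets. Esrra, the estrogen-related receptor through which PGC-1α acts on mitochondrial genes, was called up in both, by 0.53 in Spns1 KO (SE 0.17, adjusted p = 0.0373) and 0.71 in FeO. The acetyltransferase gene Kat2a rose in both, by 0.66 (SE 0.18, adjusted p = 0.0183) and 0.74 (SE 0.18, adjusted p = 0.00506), and Pparg and Tfb1m rose in FeO by 1.00 (SE 0.35, adjusted p = 0.0288) and 0.89 (SE 0.26, adjusted p = 0.0136). With length and GC offsets, 5 fell and 0 rose in Spns1 KO, whereas 11 fell and 2 rose in FeO.

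Genes upstream of the factors moved in both directions. In the nutrient and folliculin arm (22 genes), 4 rose and 5 fell in Spns1 KO while 7 rose and 7 fell in FeO, with medians of 0.042 and 0.051. Beside these counts, 14% of all genes rose and 7.55% fell in Spns1 KO, and 22.4% rose and 19.7% fell in FeO. The subunits of Ragulator, the lysosomal anchor of the Rag GTPases, rose: Lamtor2, Lamtor4 and Lamtor5 by 2.07, 1.81 and 1.12 in Spns1 KO, and Lamtor4, Lamtor5 and Lamtor1 by 1.52, 1.42 and 1.38 in FeO. Lamtor3 was at 0.18 and 0.25 and was not called. The TORC1 inhibitor gene Tsc1 fell by 0.72 in Spns1 KO (SE 0.23, adjusted p = 0.0323) and 1.47 in FeO (SE 0.23, adjusted p = 0.000495), while its partner gene Tsc2 was at 0.11 and -0.09, not called. The kinase gene Mtor fell by 0.55 (SE 0.19, adjusted p = 0.0462) and 1.16 (SE 0.19, adjusted p = 0.000587), and Mlst8, which encodes another mTORC1 subunit, was at -0.23 and -0.16, not called. Smcr8, C9orf72 and Wdr41 encode a complex related to folliculin. Smcr8 fell by 0.56 in Spns1 KO (SE 0.19, adjusted p = 0.0447) and 1.09 in FeO (SE 0.19, adjusted p = 0.000732), C9orf72 fell by 0.60 (SE 0.15, adjusted p = 0.00993) and 0.51 (SE 0.15, adjusted p = 0.0123), and Wdr41 was at -0.03 and 0.46, not called. The AMPK gene Prkaa1 fell by 0.59 in Spns1 KO (SE 0.17, adjusted p = 0.024). Removing the length and GC trend left 3 that rose and 0 that fell in Spns1 KO, and 6 that rose and 3 that fell in FeO. The Rag genes that folliculin acts on stood at 0.18 (Rragc) and 0.32 (Rragd) in Spns1 KO, not called, and at 0.51 and 0.20 in FeO, where Rragc was called.

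For 24 genes that control location and turnover of the factors, the medians were -0.055 in Spns1 KO and 0.32 in FeO. In Spns1 KO 2 rose and 2 fell, against 14% and 7.55% of all genes tested. In FeO 10 rose and 2 fell, against 22.4% and 19.7% of all genes tested. The 14-3-3 genes, whose proteins hold phosphorylated TFEB in the cytoplasm, made up 5 of the 10, and 5 of the 6 listed, led by Ywhaq at 1.36 (SE 0.25, adjusted p = 0.000825) and Ywhah at 1.26 (SE 0.22, adjusted p = 0.000687). Ywhaz, at a mean of 762 CPM in WT, was at 0.10 in FeO (SE 0.18, adjusted p = 0.682) and was not called. The kinase gene Mapk3 (ERK1) rose in both models, by 0.76 in Spns1 KO (SE 0.18, adjusted p = 0.00722) and 1.33 in FeO (SE 0.18, adjusted p = 0.000384). So did the ubiquitin ligase gene Stub1, by 0.61 in Spns1 KO (SE 0.17, adjusted p = 0.0164) and 0.54 in FeO (SE 0.17, adjusted p = 0.0161). The deacetylase gene Sirt1 fell by 0.71 (SE 0.22, adjusted p = 0.032) and 1.06 (SE 0.23, adjusted p = 0.0021), and Zkscan3, a repressor of autophagy genes, by 0.51 in Spns1 KO (SE 0.17, adjusted p = 0.0436). In FeO the kinase gene Gsk3b fell by 0.90 (SE 0.17, adjusted p = 0.00107), whereas Gsk3a rose by 0.70 (SE 0.15, adjusted p = 0.00206). With length and GC offsets Gsk3b was at -0.43 in FeO, not called, and Gsk3a at 0.65, called. The calcineurin subunit genes Ppp3ca, Ppp3cb, Ppp3cc and Ppp3r1, which encode the phosphatase that releases TFEB, lay between -0.26 and 0.33 and were not called against WT, except that Ppp3ca in FeO was called at 0.53 with length and GC offsets. With these offsets, 0 genes of this arm passed in Spns1 KO, whereas 10 rose and 1 fell in FeO.

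Of 47 CLEAR targets, the lysosomal and autophagy genes attributed to TFEB, 17 rose, 1 fell and 29 were not called in Spns1 KO. There 14% of all genes were called up and 7.55% down. In FeO, 19 rose, 1 fell and 27 were not called, against 22.4% of all genes called up and 19.7% down. The medians of the 47 targets were 0.42 and 0.45. In Spns1 KO the genes that rose included Cd63, a lysosomal tetraspanin (1.79, SE 0.23, adjusted p = 0.000387), and Hexa, a lysosomal hydrolase gene (1.31, SE 0.22, adjusted p = 0.00117), and Npc1, the lysosomal cholesterol exporter, fell by 0.69 (SE 0.14, adjusted p = 0.00317). In FeO the largest rises were those of the cathepsin gene Ctsd (1.38, SE 0.24, adjusted p = 0.00072), Cd63 (1.21, SE 0.23, adjusted p = 0.000929) and the cathepsin gene Ctsb (1.06, SE 0.20, adjusted p = 0.000924), and Vps18, a tethering subunit, fell by 0.59 (SE 0.21, adjusted p = 0.0324). Removing the length and GC trend left 16 that rose and 0 that fell in each model. Many of these genes are expressed by macrophages too, whose markers are given above, and the part of that cell type was not tested.

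Of 20 other bHLH factors that read E-boxes, 1 rose and 1 fell in Spns1 KO, and 2 rose and 6 fell in FeO (medians -0.18 and -0.17). Among all genes tested, 21.6% were called in Spns1 KO and 42.2% in FeO, so these counts do not set the list apart. Usf2 rose by 0.62 in Spns1 KO (SE 0.13, adjusted p = 0.00381) and 0.74 in FeO (SE 0.13, adjusted p = 0.000691), which became 0.03 and 0.17, not called, with length and GC offsets. The Myc antagonist gene Mxd4 fell by 0.72 in Spns1 KO (SE 0.17, adjusted p = 0.00771). In FeO the antagonist gene Mxi1 rose by 0.90 (SE 0.23, adjusted p = 0.00554), and Mnt, the glucose sensor gene Mlxip and Myc fell by 1.34, 1.24 and 1.03 (SE 0.32, 0.26 and 0.31, adjusted p = 0.00378, 0.00177 and 0.0153).

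**Figure D5:**
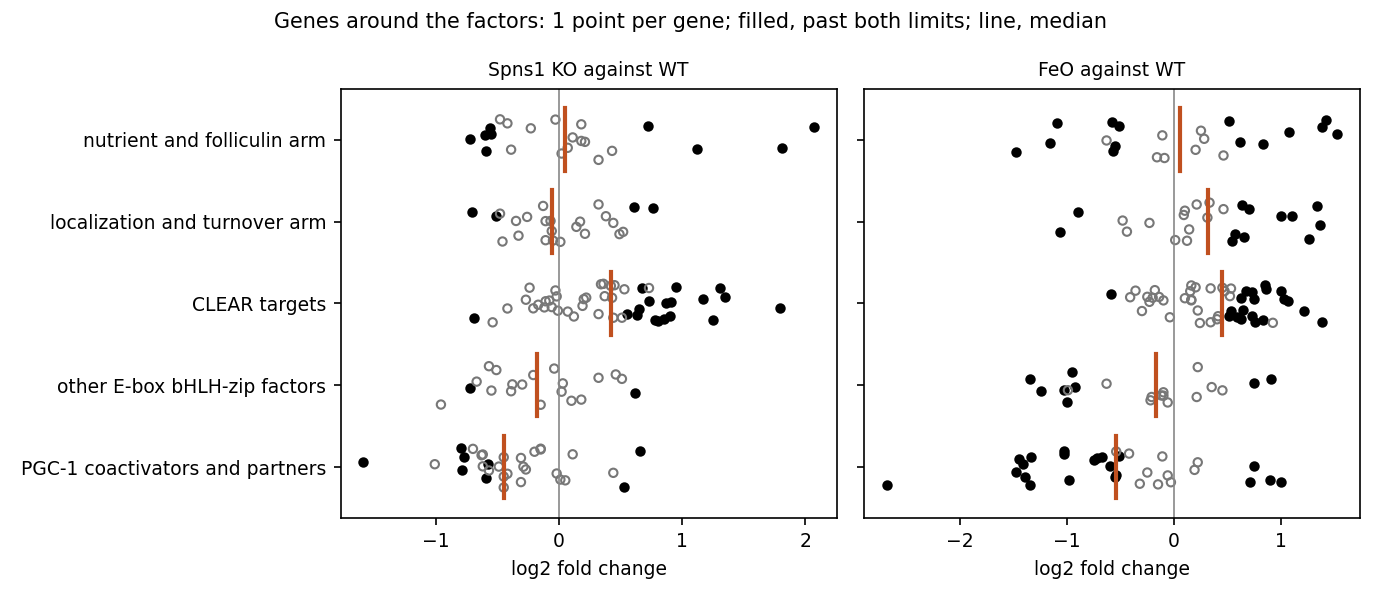
Log2 fold change of each gene of the 5 lists around the members (rows), in Spns1 KO against WT and FeO against WT; filled points are past both limits and the vertical line of each row is the list's median. CLEAR targets have medians of 0.42 and 0.45, and PGC-1 coactivators and partners have medians of -0.45 and -0.54.

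The members also differed in which genes they resembled across the 13 libraries, by Pearson's r of log2 CPM, searched over the 12207 genes that averaged 100 counts or more. These correlations are descriptions, and the libraries share groups, depth and tissue makeup. Fnip2 was most like Plekha5, Pde4d and Trak1 (each r = 0.986), and Flcn most like Cyp4f17 (0.987), Zfp710 (0.978) and Lbh (0.975). Fnip1 was closest to Samd8 (0.971), Dyrk2 (0.967) and Gk5 (0.967), and Ppargc1a to Prdm10 (0.984), Aff1 (0.981) and Tjp1 (0.981). Gpnmb was closest to Cd53, a leukocyte tetraspanin (0.944), Med19 (0.930) and Adam8 (0.926). The nearest genes of the factors were Lzts2, Sox17 and Nkd1 for Tfeb (0.903, 0.899 and 0.887), Usb1, Fam53a and Pdlim2 for Tfe3 (0.958, 0.955 and 0.945), Arhgap19, Yap1 and Megf9 for Mitf (0.954, 0.931 and 0.918) and Skida1, Dera and Amacr for Tfec (0.930, 0.923 and 0.918). Among the members, Flcn and Fnip2 had r = 0.91 and Fnip1 and Fnip2 had r = 0.82, whereas Tfeb had r = 0.29 with Tfe3 and -0.52 with Tfec.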

How the data were processed

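Nascent RNA labelled with 4-thiouracil was captured from whole kidney through biotin and streptavidin, poly-A selected and sequenced in paired-end reads. The authors deposited estimated counts per gene symbol, without normalization, in a table named for kallisto. The labels' processing notes list bcl2fastq 2.19, kallisto 0.44.0, DESeq2 and GRCm38, whereas the paper's methods describe STAR alignment and HTSeq counting, so which pipeline made the table is not settled. The values were rounded to whole numbers, and 0 columns lacked a sample.

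Genes kept by filterByExpr were tested with edgeR 4.0.16 (glmQLFit and glmQLFTest, TMM factors, R 4.3.3) in 1 fit of all 13 libraries, with Benjamini-Hochberg adjustment over the whole table. The limits were an adjusted p under 0.05 and a log2 fold change beyond 0.5. CPM are counts divided by TMM-scaled library totals. Levels per kb and the length and GC trend (splines with 5 degrees of freedom, removed as offsets) used GENCODE M21 basic transcripts, which matched 34222 of 35013 symbols. Estimated counts divide reads that fit several genes, but at most 1.59% of any member's 31-base sequences recur in another gene. Shares were tested with exact permutation tests (scipy 1.17.1). The fits were also run on simulated counts in which few genes changed, and in a single group. That setting differs from these data, so the run does not show how the fits behave with changes this wide.

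DESeq2 1.42.0, limma-voom (limma 3.58.1), other factors, no filter, the 2 groups alone, trend removal, a replicate block and leaving out each library were the alternatives. The numbers in the titles were not taken to pair the libraries. The members and gene lists were chosen with earlier results of these data known. Text names the members, Spns1, at most 3 called genes per list, direction and comparison against WT with the largest changes, and the 3 most correlated genes per member; others named were chosen after their values were seen, and a gene that the rule selects is not reported here. A pair of listed genes were matched under their current symbols (C9orf72, Pip4p1). The labels do not say that libraries come from separate mice, so p-values measure the spread between these libraries. No protein sequences were used here.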

Additional observations from a re-analysis of the deposited data

Results flagged for a closer look

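Among the 45 sets of 4 or 5 libraries examined (each member and Spns1 in CPM, and each share), 5 held a library whose gap to its neighbor exceeded Dixon's critical value (0.829 for 4 libraries, 0.71 for 5); chance gives about 1 in 20. Flcn in FeO 2 stood at 62.5 CPM, above the other FeO libraries, and Spns1 in WT 4 at 39.2 CPM, below the other WT libraries. The share of Tfeb was 22.5% in Spns1 KO 4, above its group. FeO 3 gave 6.77% for Tfeb and 21.3% for Tfe3, both below the rest of FeO. In that library Tfec stood at 52 CPM and made up 51.2% of the 4 factors.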

How the results depend on the processing

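Of 690 values of single genes under alternatives, 636 kept their direction and side of the limits. Members called numbered 2 in Spns1 KO with library totals, DESeq2 or the 2 groups alone, 3 in FeO with a replicate block and the trend removed, and in Spns1 KO against FeO 4 with DESeq2 or limma-voom and 1 with library totals, the 2 groups alone or a replicate block. The cause was not tested. A check over the 500 most variable genes showed no pairing of libraries by number. Deviations from group means in 12 pairs with the same number had r from -0.432 to 0.264, 4 over 0.1. Of 12 libraries, 2 were closest to their own number. The check cannot exclude pairing, because its genes were picked for variance over all libraries, which includes differences between groups. Ppargc1a in FeO was lost, at -0.48, with block and trend removal together. Genes called overall went to 1470 and 4511 against WT with block and trend removal, and to 1040 in Spns1 KO against FeO with the 2 groups alone. Leaving out each library gave 1 to 2, 5 to 6 and 1 to 4 members and 2035 to 5680, 5627 to 7473 and 1181 to 3087 genes in the 3 comparisons.

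With the trend removed, called genes became 3 (Spns1 KO) and 9 (FeO) in the nutrient arm, 0 (Spns1 KO) in the localization arm, 1 and 5 among E-box factors, 5 and 13 among PGC-1 partners and 1 among melanocyte markers in FeO. Signs reversed for uncalled values: Tfeb in Spns1 KO (-0.10 with library totals, -0.13 with the trend removed, -0.14 also with the replicate block), Fnip1 in Spns1 KO (0.14 and 0.034 with the trend removed, without and with the block), Mitf in FeO (0.012 with limma-voom, 0.046 unfiltered) and Ppargc1a between models (-0.027 with library totals, -0.10 and -0.12 with the trend removed).

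Leaving out 1 library also turned signs of uncalled values, over ranges of -0.025 to 0.087 (Tfeb) and -0.84 to 0.032 (Gpnmb) in Spns1 KO, -0.30 to 0.0043 (Tfeb) and -0.12 to 0.14 (Mitf) in FeO, and -0.10 to 0.049 (Tfe3), -0.68 to 0.18 (Tfec) and -0.16 to 0.17 (Ppargc1a) between models. Share differences did so for Tfeb in Spns1 KO (-0.394 to 1.66 points), Mitf in FeO (-5.43 to 0.524), and between models Tfe3 (-0.0541 to 4.74), Tfec (-7.7 to 4.51) and Fnip2 (-0.936 to 6.88). Groups of 4 and 5 limit what the share tests can show, and Gpnmb in Spns1 KO and WT rests on as few as 19 counts.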
